A study of Homo sapiens with 2 samples.

Results

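The genes ACTN4 and ACTN1 encode the alpha-actinins of non-muscle cells, and the peaks described here are those that a map of active YAP placed in a window around each gene. A peak was taken as a member when its summit lay in the hg19 window from 39.1 to 39.27 Mb of chromosome 19 for ACTN4, which is 170 kb wide, or from 69.29 to 69.55 Mb of chromosome 14 for ACTN1, which is 260 kb wide. This gave 8 peaks for ACTN4 and 3 for ACTN1, 11 of the 9393 peaks in the list. Members were chosen by the deposited summit positions, in windows drawn with the peaks known, so numbers, places, spacing and heights of the members are given as descriptions without a test.

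The list came from chromatin immunoprecipitation sequencing (ChIP-seq) of MCF10A, a human mammary epithelial line that the labels call non-transformed in the source name and a breast cancer line among the characteristics. The cells expressed YAP-5SA, a Flag-tagged YAP mutant that escapes restraint by the Hippo kinases because serines they phosphorylate have been replaced by alanine. Chromatin bound to the tag was collected on Flag-M2 beads. A single ChIP library and a single library of input DNA make up the 2 samples, and neither has a replicate. There was no ChIP from cells without YAP-5SA among the samples used here, so the peaks show where the tagged mutant was recovered and not how endogenous YAP is distributed. Read depth is unknown because the peak file holds no read counts, and reads of the input were not analysed here.

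Alpha-actinins are rod-shaped dimers that hold actin filaments together. Each chain binds actin through a pair of calponin homology domains at its start, spans the distance between filaments with spectrin repeats, and ends in EF hands that, in the non-muscle proteins, make actin binding sensitive to calcium. ACTN1 is prominent in focal adhesions and along stress fibres, and ACTN4 is found at the cell edge and also in the nucleus. The related ACTN2 and ACTN3 are the alpha-actinins of the muscle Z-disc. YAP, a co-activator that binds DNA mainly through TEAD factors, responds to tension in the same actin network.

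The sequences next to the annotated starts of both genes were searched for the letters of the TEAD site, GGAATG, and of an AP-1 type site, TGANTCA, which reads the same on both strands. The search covered both strands of the 300 bases around each start in the RefSeq promoter table for GRCh38.p14, and the 2 motifs did not overlap in any match. The build differs from that of the peaks, so no peak was placed on these sequences. Of the 4 annotated ACTN1 starts, 1 had a TEAD match and none an AP-1 match. Of the 2 ACTN4 starts, 1 had an AP-1 type match and none a TEAD match. Over all 35116 promoters of the table, 14.03% held GGAATG and 7.709% held TGANTCA. The only ACTN2 promoter held neither, and the table had no entry matched to ACTN3, so no ACTN3 sequence was searched. The 250 bases before the 2 starts with a match are shown with the match in capitals, because they carry the only matches among the ACTN1, ACTN4 and ACTN2 promoters searched.
ACTN4, the first annotated start, chr19:38647399-38647648 of GRCh38.p14, plus strand: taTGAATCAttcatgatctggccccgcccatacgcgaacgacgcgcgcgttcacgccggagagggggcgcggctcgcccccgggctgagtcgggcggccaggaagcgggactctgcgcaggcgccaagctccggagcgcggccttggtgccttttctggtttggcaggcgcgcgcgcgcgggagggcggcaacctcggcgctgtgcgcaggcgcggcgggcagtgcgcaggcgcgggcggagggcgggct
ACTN1, the third annotated start, chr14:68977567-68977816 of GRCh38.p14, minus strand: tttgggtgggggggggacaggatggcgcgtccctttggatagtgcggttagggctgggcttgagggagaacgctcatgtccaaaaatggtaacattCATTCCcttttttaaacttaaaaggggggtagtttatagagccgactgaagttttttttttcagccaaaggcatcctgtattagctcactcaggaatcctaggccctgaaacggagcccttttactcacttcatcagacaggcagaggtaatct
The ACTN4 match, TGAATCA, runs at positions -248 to -242 from the start and has A at the free position, where the usual AP-1 site has C or G. The ACTN1 match lies at positions -154 to -149 from its start, and its letters CATTCC are GGAATG on the other strand. These matches are letters in the reference and not observed binding. The first ACTN1 start, with a GC content of 71.0%, had no match to either motif, against a GC content of 49.3% at the third start and 74.7% at the first ACTN4 start, each over 300 bases.

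In the ACTN4 window the peaks lay close together toward its start, and in the ACTN1 window they lay far apart. The 8 ACTN4 summits spanned 46.6 kb, from 27.8 to 74.4 kb after the start of the window, and the last 95.6 kb held no summit. The 3 ACTN1 summits spanned 137 kb, at 119, 155 and 256 kb after the start, the last only 3.95 kb from the end of the window. This makes 4.71 summits per 100 kb for ACTN4 and 1.15 for ACTN1, beside 0.311 for the whole list, 0.379 for chromosome 19 and 0.254 for chromosome 14, each counted from position 1 to the last summit. Peak intervals covered 6024 bp of the ACTN4 window, or 3.54%, and 2256 bp of the ACTN1 window, or 0.868%.

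**Figure D1:**
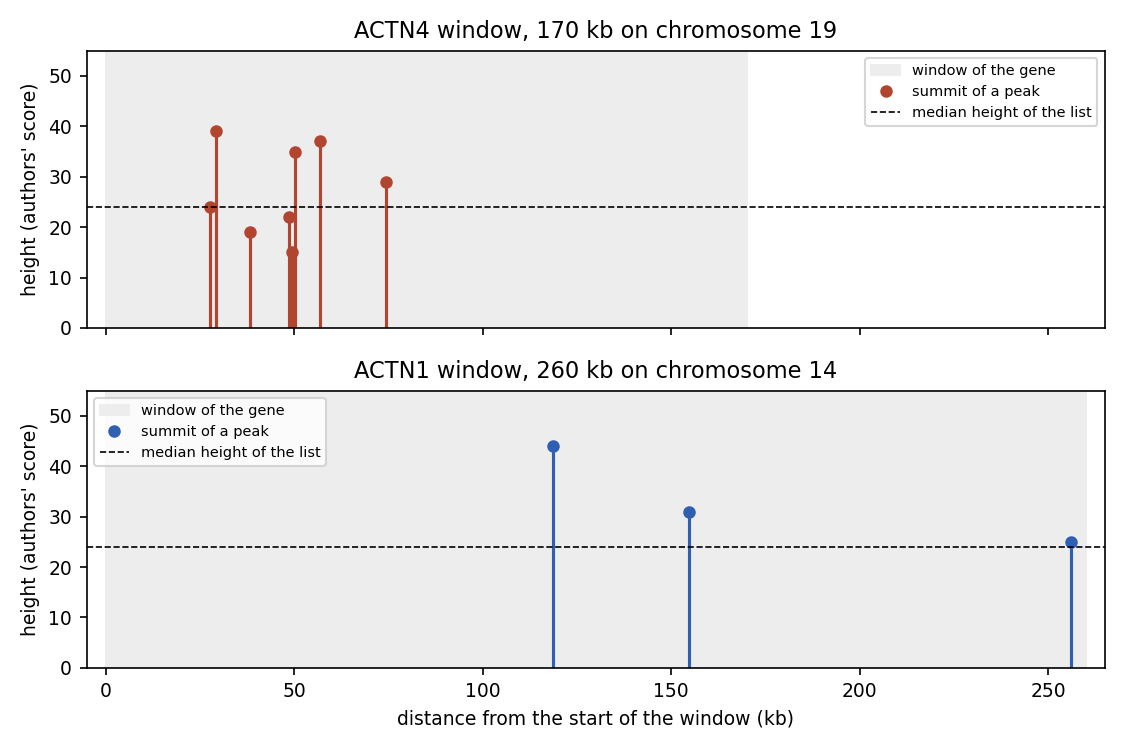
Height of each peak (the authors' score, no unit given) against the distance of its summit from the start of the window in kb, for ACTN4 above and ACTN1 below, on the same scales. Grey marks the window and the dashed line the median height of the list, 24; all 8 ACTN4 summits stand between 27.8 and 74.4 kb, and the 3 ACTN1 summits at 119, 155 and 256 kb.

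The height of a peak is the score the authors gave at its summit, a whole number without a stated unit that serves only to rank peaks within this list. Over the list its median was 24, with quartiles at 19 and 30 and a range from 9 to 100. Heights of the ACTN4 peaks ran from 15 to 39 with a median of 26.5 and a mean of 27.5 ± 8.88 (SD over 8 peaks of 1 library). Heights of the ACTN1 peaks ran from 25 to 44 with a median of 31 and a mean of 33.3 ± 9.71 (SD over 3 peaks of the same library). The heights of the windows overlapped. The median height was 24 on both chromosomes.

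Heights above the list median were found in 4 of the 8 ACTN4 peaks and in 3 of the 3 ACTN1 peaks, beside 45.5% of the list. The ACTN4 window held 3 lower peaks and 1 at the median. A height of 40 or more was reached by 1 of the 11 members, the tallest ACTN1 peak, beside 8.67% of the list. The close peaks at ACTN4 were thus a mixture of low and moderately tall ones, none of which reached 40.

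The ACTN4 peaks, numbered from the start of the window, began with a close pair. Peak 1, at 39127338-39128005 on chromosome 19, had a height of 24. Peak 2, at 39129024-39129613, was the tallest of the window with a height of 39, which 9.59% of the list and 12.9% of the 224 peaks of chromosome 19 reached. The summits of this pair were 1.47 kb apart, and the taller peak was 1.62 times as high.

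Peak 3 stood alone between the pair and the peaks that follow. It covered 39137815-39138578, with a height of 19 that 78.7% of the list reached. Its summit was 9.06 kb from that of peak 2 and 10.3 kb from that of peak 4.

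Peaks 4, 5 and 6 formed a tight triplet in which the middle peak was the lowest. Peak 4 covered 39148319-39148994 with a height of 22, peak 5 covered 39149103-39149799 with a height of 15, and peak 6 covered 39150057-39150738 with a height of 35. Their summits were 816 and 928 bp apart, and the gaps between their intervals were 108 and 257 bp. The height of peak 5 was reached by 94.8% of the list, so it was among the lowest peaks called. Peak 6 was 2.33 times as high as peak 5, its direct neighbour. Of the 9370 neighbouring pairs of summits in the list, 109 were within 1 kb, 2 of them at ACTN4. In 9 of the 109, the pair of peaks 5 and 6 included, the taller peak was at least 2.33 times as high. The median ratio of the taller to the lower height was 1.35 over the 109 close pairs and 1.38 over all neighbouring pairs. The member summits lay on a grid: 7 of the 8 ACTN4 summits and all 3 of ACTN1 were multiples of 32 bp. The other lay 16 bp off, so these distances are resolved to about that step.

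Peaks 7 and 8 closed the set. Peak 7, at 39156514-39157242, had a height of 37, which 11.8% of the list reached, and its summit was 6.50 kb beyond that of peak 6. Peak 8, at 39174161-39175378, had a height of 29 and stood 17.6 kb from peak 7. At 1218 bp it was the widest member, a width that 1.82% of the list reached. Its summit was off centre, 271 bp from the start of the interval and 946 bp from the end. In 163 peaks of the list, or 1.74%, the summit was at least as far from the middle relative to the width. The deposited file gives 1 summit per interval, so whether the long side of peak 8 holds a further maximum cannot be read from it.

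**Figure D2:**
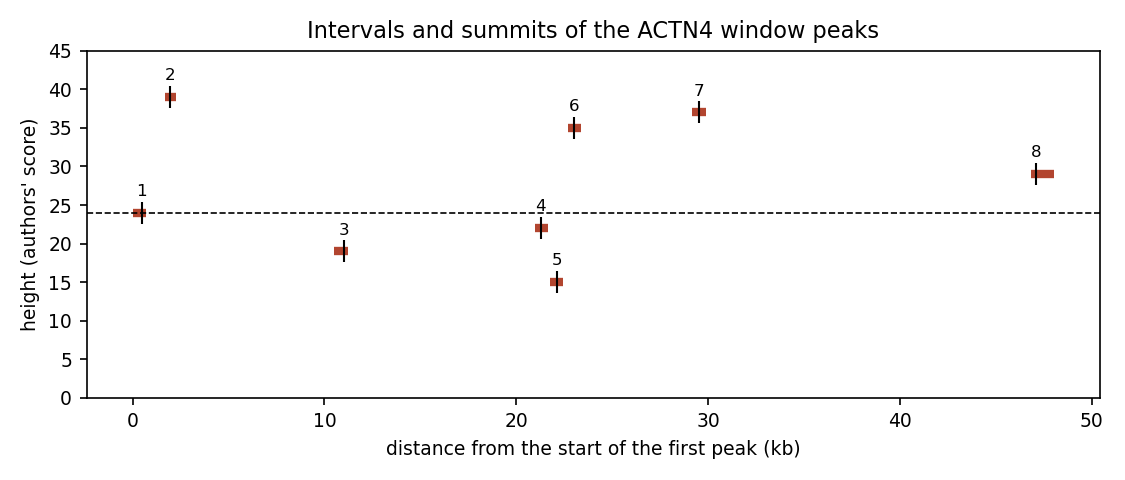
Intervals of the 8 ACTN4 peaks (thick lines, to scale) and their summits (ticks), by distance in kb from the start of peak 1 and by height (the authors' score), numbered in order; the dashed line is the list median of 24. Peaks 4, 5 and 6 stand at heights 22, 15 and 35 within 1.74 kb, and the interval of peak 8 extends mostly beyond its summit.

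The ACTN4 peaks were the most compact run of 8 summits in the list. Of 9232 runs of 8 consecutive summits on a chromosome, this was the only 1 that fitted into 46.6 kb, and the next shortest, on chromosome 5 from 125709728 to 125782432, spanned 72.7 kb. The triplet was the second shortest of 9347 runs of 3 summits, at 1.74 kb. The shortest, on chromosome 3 from 141085504 to 141087136, spanned 1.63 kb. Of 9255 runs of 7 summits, 2 fitted into the 29.1 kb of peaks 1 to 7, those peaks included. The run lengths of 8, 7 and 3 were taken from the members themselves, so these ranks are descriptions and test nothing. Joining intervals separated by no more than 10 kb put peaks 1 to 7 into 1 group of 29.9 kb and peak 8 stood outside it. Only 1 other of the 8336 groups in the list, single peaks included, held as many peaks. This group of 7 depends on the joining distance, because the interval gaps on either side of peak 3 are 8.2 and 9.74 kb. Joined at 5 kb, the largest group at ACTN4 held 3 peaks. The other group of 7 at 10 kb, on chromosome 1, was lower, its heights running from 12 to 25 around a median of 21, beside 15 to 39 and 24 at ACTN4. The 2 groups of 6 peaks, on chromosomes 3 and 5, reached heights of 53 and 45 with medians of 30 and 29. These 4 groups were picked for their size and were not tested against each other.

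With windows of 170 kb laid end to end over all chromosomes, 0.0281% held at least 8 summits, 5 of 17790. The 95% Wilson interval was 0.012 to 0.0658%, counting error only, as if the windows were independent draws. The ACTN4 window is itself among the 5, because its edges fall on this tiling. The count depended on where the tiling began: begun 85 kb later, 9 of 17781 windows, or 0.0506%, held at least 8. With windows of 260 kb, 9.03% held at least 3 summits, 1051 of 11638 (Wilson interval 8.52 to 9.57%), and 2 of the 1051 hold ACTN1 members. Most windows were empty, 66.3% at 170 kb and 55.4% at 260 kb, and these include stretches of the assembly to which reads may not map.

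**Figure D3:**
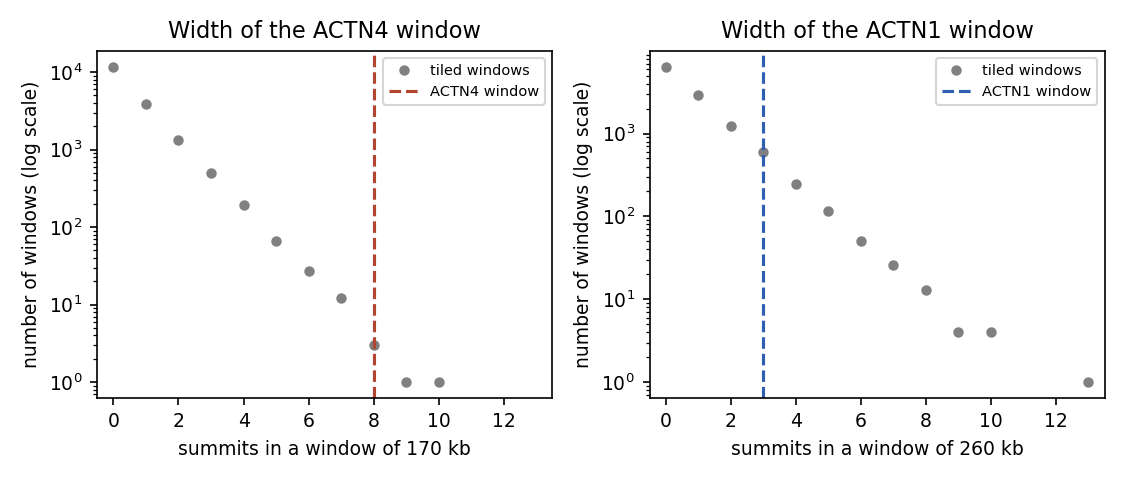
Number of windows (log scale) by the number of summits they held, for windows laid end to end over all chromosomes, 170 kb wide on the left and 260 kb wide on the right; dashed lines mark the ACTN4 window with 8 summits and the ACTN1 window with 3. At 170 kb, 2 windows held more than 8 summits, and at 260 kb, 460 windows held more than 3.

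The ACTN1 peaks decreased in height along the window. The first, at 69408431-69409043 on chromosome 14, was the tallest of all 11 members with a height of 44. In the list 5.54% of peaks reached that height, and on chromosome 14 it was reached by 22 of 270. The second, at 69444304-69445033, had a height of 31, which 23.6% of the list reached, and its summit was 35.9 kb from the first. The third, at 69545770-69546682, had a height of 25, just above the list median, and stood 101 kb from the second. The third was the widest of these peaks at 913 bp, a width that 8.03% of the list reached, and the others were 613 and 730 bp wide. No ACTN1 interval joined with another peak at 10 kb.

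Widths of the ACTN4 peaks ran from 590 to 1218 bp with a median of 689.5 bp, and those of ACTN1 from 613 to 913 bp with a median of 730 bp, beside a median of 611 bp and quartiles of 520 and 709 bp in the list. A width of 900 bp or more was found in 2 of the 11 members, 1 in each window, beside 8.45% of the list. In neither window was the widest peak the tallest. The widest peaks had heights of 29 and 25, and the tallest, of heights 39 and 44, were the narrowest of their windows at 590 and 613 bp. These 2 widths were ordinary for the list, of which 56.5% and 49.7% were at least as wide. A relation of width to height was not tested.

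**Figure D4:**
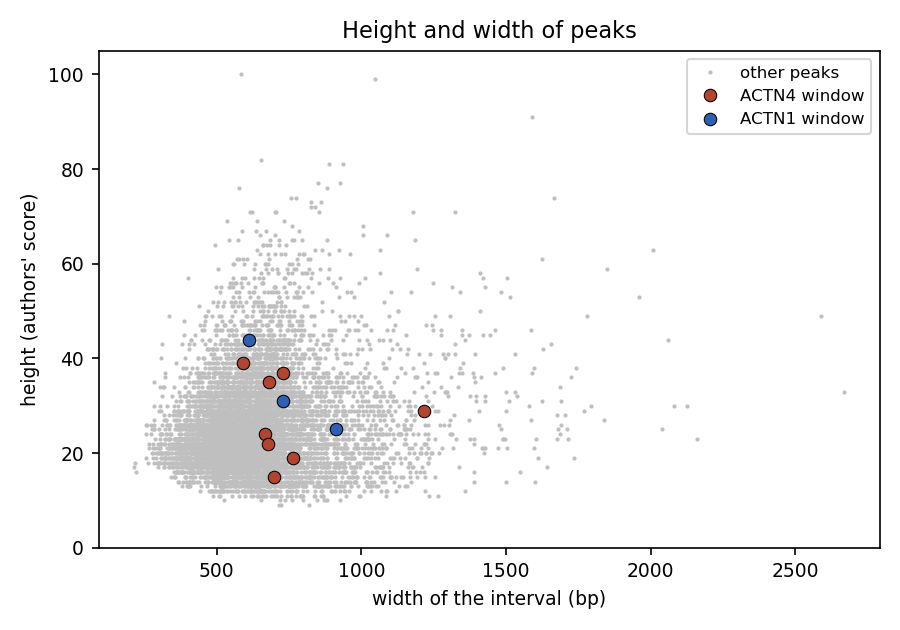
Height (the authors' score) against interval width in bp for the 8 ACTN4 peaks (red), the 3 ACTN1 peaks (blue) and the other peaks of the list (grey). The tallest member of each window, 39 and 44 high, is also its narrowest, and the members 1218 and 913 bp wide have heights of 29 and 25.

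Distances between neighbours differed between the windows, with some overlap. Another summit within 10 kb was found for 7 of the 8 ACTN4 peaks and 0 of the 3 ACTN1 peaks, beside 19.5% of the list. The distance to the nearest summit ran from 0.816 to 17.6 kb at ACTN4 and from 14.4 to 35.9 kb at ACTN1, with a median of 55.8 kb in the list. At ACTN1 the shortest of these distances was from the third peak to a peak outside the window.

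**Figure D5:**
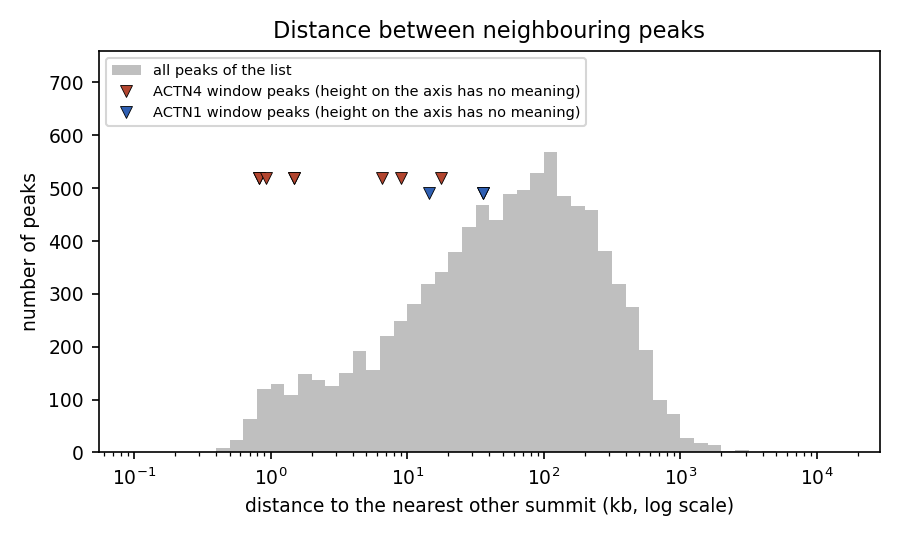
Distance from each summit to its nearest other summit in kb (log scale): grey bars count all 9393 peaks, and triangles mark the members, whose place on the vertical axis has no meaning. The ACTN4 triangles (red) lie between 0.816 and 17.6 kb and those of ACTN1 (blue) at 14.4 and 35.9 kb, where 2 peaks share the latter.

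Around the ACTN4 set there was a clear margin on each side. The nearest peak before it, of height 39, lay 148 kb from peak 1 and 120 kb before the window. The nearest after it, of height 30, lay 148 kb from peak 8 and 52.0 kb beyond the window, and edges 25 kb further in or out gave the same number of peaks. A region of the same width held 1 peak just before the window and 2 just after it.

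At ACTN1 the edges mattered. Just inside the end lay the third peak, of height 25, and 10.4 kb past it lay a peak of height 21, 14.4 kb from the third. Just before the start, the nearest peak, of height 12, was 30.3 kb away. A region as wide as the window held 5 peaks before it, between 12 and 50 high with a median of 21, and 1 after it. ACTN1 thus had fewer peaks than the region before it, whose tallest, at 50, was higher than any member.

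Membership of a window does not assign a peak to the gene. By gene order in the RefSeq table for GRCh38.p14, the protein-coding neighbours of ACTN4 are MAP4K1, a kinase of blood cells, and EIF3K, a subunit of a translation initiation factor, on the side of lower coordinates. On the other side they are CAPN12, a calpain protease, and LGALS7, the epithelial lectin galectin-7. ACTN1 is flanked by RAD51B, a DNA recombination factor, and ZFP36L1, which promotes the decay of AU-rich mRNAs, on the side of lower coordinates. On its other side are DCAF5, a substrate receptor of a ubiquitin ligase, and EXD2, an exonuclease. The windows may extend into such neighbours. Whether a peak lies in a promoter, an exon or an intron of ACTN4 or ACTN1, in a neighbour or between genes was not determined, because no hg19 annotation was used here. For the same reason ACTN2, ACTN3 and the proteins that work with alpha-actinins on actin could not be searched for peaks.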

How the data were processed

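Reads were handled with BWA 0.6.1 and MACS on hg19, per the submitters' processing notes. For MACS, neither version nor threshold nor use of the input is given in the sources used here. The score deposited by the authors in the summit track, per the file headers, is called the height, and a second track gives the intervals. Summits and intervals were joined by line order, and all 9393 summits lay inside their interval. Heights were not corrected for DNA copy number. Interval positions are 1-based and summits are as deposited. The members, windows and lists were chosen with earlier results of these data known. With 1 ChIP library no test was made, and SDs over peaks are not replicate errors. Wilson intervals are at the 95% level. They treat windows as independent draws, though these are all the windows of 1 list, so they serve only as a yardstick for the alternatives. Named genes were, by rule, the members, their paralogs and the 2 protein-coding genes on each side. A comparison of protein sequences and a list of actin-binding partners were planned and not used here. Window counts, groups and runs were checked on simulated peaks at known places. Scripts ran under Python 3.11.15, using pandas 2.3.3, numpy 2.4.6 and scipy 1.17.1. Alternatives changed the window edges, the height threshold, the tiling and the joining distance.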

Additional observations from a re-analysis of the deposited data

How the results depend on the processing

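No paired analysis was possible because neither group has a second library, so no replicate could be left out either. Of 28 values under alternatives, 19 stayed close to those reported: within 1.5 times for counts, within the Wilson interval for shares and within 1 SD over peaks for medians. The other 9 moved. Among the 19 is the tiling begun 85 kb later, inside the Wilson interval for ACTN4 yet 0.0506% against 0.0281%, more than 1.5 times as much. Restriction to peaks higher than the list median left 4 of the 8 ACTN4 peaks, and the share of windows with as many such peaks was then 0.299% for ACTN4 and 2.25% for ACTN1. With all peaks counted again, and only windows that hold a peak as the base, the shares were 0.0835% for ACTN4 and 20.2% for ACTN1. With all peaks and only the windows of the gene's own chromosome, they were 0.287% and 5.62%. The ACTN4 value on chromosome 19 is 1 of 348, and that 1 is the ACTN4 window itself, so it gives no background. The ACTN1 value on chromosome 14 is 23 of 409, and 2 of the 23 hold ACTN1 members. Joining at 5 kb left a largest group of 3 at ACTN4, and joining at 25 kb gave a group of 2 at ACTN1, with the peak beyond the window. With edges 25 kb further out ACTN1 had 4 peaks, and 25 kb further in it had 2. ACTN4 kept 8 in both cases. Merging overlapping intervals joined no members. Every value rests on 1 library of unknown depth.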
